A study of Mus musculus with 8 samples.

Results

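Matrix metalloproteinases and their tissue inhibitors are described here in mouse bone marrow derived macrophages, through 11 probes of 9 genes. The genes are the collagenases Mmp8 and Mmp13, the gelatinase Mmp9, the macrophage elastase Mmp12, the membrane-bound Mmp14, the secreted Mmp19, and the inhibitors Timp1, Timp2 and Timp3. Members were all non-control probes annotated with these gene names, out of 39429 non-control probes on the array. All 11 were among the 22406 probes bright enough to be tested. Mmp12 and Timp2 had 2 probes each and the other 7 genes had 1.

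Cytoplasmic RNA was hybridised to 8 dual-colour arrays, 2 in each of 4 groups, and every array set cells after 3 days under CSF-1, a cytokine that macrophages need to form and survive, against day 0 cells of that genotype and experiment. Groups were ERT2 Cre Thoc5 (flox/flox) cells with tamoxifen, the same cells without it, ERT2 Cre control cells with tamoxifen, and ERT2 Cre control cells without it. All groups carried ERT2 Cre, a recombinase that tamoxifen activates, on the C57BL/6 x B6:129 Ola background, and only the flox cells carried the floxed Thoc5 alleles. Each experiment used its own RNA, experiment 2 was run with the dyes swapped, and the day 0 RNA of a genotype served both of its arrays in an experiment. The promoter that drives the recombinase, the age of the mice and any pooling of animals are not given in the sources used here. Below, flox and control name the genotypes, and a pair of values gives experiment 1 and then experiment 2.

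Matrix metalloproteinases are zinc-dependent proteases, most of them secreted as inactive proenzymes, that cut collagens, elastin and other extracellular proteins. TIMPs bind their active site and block them, and Timp2 also takes part, with Mmp14, in the activation of proMmp2 at the cell surface. Macrophages are a main source of Mmp12, while Mmp8 and Mmp9 are known as granule enzymes of neutrophils, which are abundant in bone marrow. Thoc5 is a subunit of the THO complex, which takes part in the export of some mRNAs from the nucleus. The arrays read RNA of the cytoplasm only.

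Thoc5 itself had log2 ratios of day 3 over day 0 of -3.04 and -3.02 in flox cells with tamoxifen, against -0.74 and -0.77 in flox cells without it, a tamoxifen effect of -2.27 ± 0.10 (SE, adjusted p = 0.000892, limma). In control cells it had -0.21 and -0.15 with tamoxifen and -0.40 and -0.28 without. All 9 macrophage markers checked, among them Csf1r and Adgre1, were well above background in both channels of all 8 arrays. All 11 neutrophil markers tested were also above background throughout, with a mean log2 intensity of 10.04 to 11.02 at day 3 and 13.72 to 15.01 at day 0. The array of flox cells with tamoxifen in experiment 2 stood apart in the mean of its stromal markers (Col1a1, Dcn and 6 others). That mean log2 ratio was 0.57 there and between -1.11 and -0.25 on the other 7 arrays. Not every marker did so. Col1a1 had -0.45 and 1.49 in flox cells with tamoxifen, but Dcn had 1.09 and 1.26 and Bgn 1.30 and 1.81. The values of Timp1, Timp3 and the matrix genes that move with the experiment 2 array are also given without it.

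The probes show which part of each mRNA was read. Those of Mmp12, Mmp14 and Timp2 on which the tamoxifen comparison mainly rests are given here 5′ to 3′, with positions on the mm9 build as the array files give them. The Mmp12 probe lies on the plus strand at chr9:7352935-7352994 and the Mmp14 probe on the plus strand at chr14:55058775-55058834. The Timp2 probe is on the minus strand of chromosome 11, and its 60 bases span chr11:118171964-118178741, so that it crosses at least 1 intron and reads spliced RNA.
Mmp12 probe 1: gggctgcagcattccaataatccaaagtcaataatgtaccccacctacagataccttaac
Mmp14 probe: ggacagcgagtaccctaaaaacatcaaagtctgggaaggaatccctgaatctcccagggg
Timp2 probe 2: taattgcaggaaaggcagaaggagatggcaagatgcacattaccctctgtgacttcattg

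Mmp13, Mmp12 and Mmp8 lie in 1 cluster of metalloproteinase genes on chromosome 9, in the order Mmp13, Mmp12, Mmp1b, Mmp3, Mmp1a, Mmp10, Mmp8 and Mmp27. Their promoters are shown because these neighbours had different patterns in the arrays. Promoter sequence was listed for 7 of the 9 genes (RefSeq, GRCm38.p6), and the 250 bases before each start site were searched on both strands for 4 motifs. These were TGANTCA for AP-1, the letters GAGGAAGT for the macrophage and neutrophil factor PU.1, the letters TATAAA for a box of that name, and TCACGTGA for the lysosomal CLEAR element. No matches overlapped in these windows. Matches are in capitals below, and all 4 windows are on the plus strand. Mmp12 is listed with 2 start sites, at the ends of chr9:7344147-7344396 and chr9:7347124-7347373. Mmp8 has the window chr9:7558179-7558428 and Mmp13 the window chr9:7272264-7272513.
Mmp12 start 1: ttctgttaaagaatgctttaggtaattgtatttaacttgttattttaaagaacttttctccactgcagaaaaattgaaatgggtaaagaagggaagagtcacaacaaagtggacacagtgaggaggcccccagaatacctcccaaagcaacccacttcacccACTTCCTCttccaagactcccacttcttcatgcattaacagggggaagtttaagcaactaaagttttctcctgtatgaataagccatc
Mmp12 start 2: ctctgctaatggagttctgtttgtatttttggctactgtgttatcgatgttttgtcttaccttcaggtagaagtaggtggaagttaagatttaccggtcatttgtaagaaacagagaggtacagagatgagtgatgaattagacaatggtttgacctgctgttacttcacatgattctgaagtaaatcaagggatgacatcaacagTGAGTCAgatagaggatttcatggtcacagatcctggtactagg
Mmp8: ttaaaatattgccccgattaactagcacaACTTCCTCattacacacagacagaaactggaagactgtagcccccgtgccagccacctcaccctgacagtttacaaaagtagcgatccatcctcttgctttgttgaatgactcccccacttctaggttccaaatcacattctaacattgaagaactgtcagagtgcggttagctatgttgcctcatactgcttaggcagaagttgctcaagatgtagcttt
Mmp13: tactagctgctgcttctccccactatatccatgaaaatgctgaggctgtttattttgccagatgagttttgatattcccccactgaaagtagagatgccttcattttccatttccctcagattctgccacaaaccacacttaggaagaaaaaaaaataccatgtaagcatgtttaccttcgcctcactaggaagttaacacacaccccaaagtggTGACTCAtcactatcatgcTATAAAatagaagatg

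Start 1 of Mmp12 had a PU.1 match (reverse strand, printed as ACTTCCTC) 88 bases before the start, and start 2 had an AP-1 match 44 bases before it. Mmp8 had a PU.1 match 221 bases before its start, also on the reverse strand. Mmp13 had an AP-1 match at 35 bases and a TATA match at 16 bases. Among 32851 mouse promoter windows of the same length, 6.75% held an AP-1 match, 2.44% a PU.1 match, 12.4% a TATA match and 0.785% a CLEAR match. The windows of Mmp14, Timp1, Timp2 and Timp3 held none of the 4 motifs. A match describes the letters only.

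In flox cells, 5 of the 9 genes were called for more day 3 RNA relative to day 0 with tamoxifen than without it. Mmp12 had the largest difference, 5.07-fold by probe 1, and Mmp14, Timp2, Mmp9 and Mmp8 were between 1.64-fold and 1.92-fold higher. Timp1 was estimated at 2.17-fold higher but was not called. Of the 11 probes 7 were called higher and 0 lower (adjusted p under 0.05, limma over 22404 probes), where 4.52% of all probes were called higher, 4.11% lower and 8.63% in either direction. The median effect of the members was 0.82 on the log2 scale, against -0.01 for all probes tested. Because this is RNA of whole cultures, more cells of a type and more RNA per cell cannot be told apart.

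Mmp12 probe 1 had log2 ratios of day 3 over day 0 of 1.36 and 1.79 in flox cells with tamoxifen, against -0.51 and -1.02 in flox cells without it. Both arrays with tamoxifen were above 0 and both without it below, and the effect was 2.34 ± 0.51 (SE, n = 2 arrays per group, adjusted p = 0.0429, limma). The call was lost in 9 of 20 alternatives, among them the fit without the replicate block and the deposited value table (effect between 1.52 and 3.17, adjusted p up to 0.203). Mmp12 probe 2 is a dim probe: its ratios were 0.18 and 0.28 in flox cells with tamoxifen, against -0.83 and -0.81 without it. Its day 3 signal was not well above background on either array of flox cells without tamoxifen, so the difference at day 3 is given as at least 2.16-fold higher with tamoxifen (measured mean log2 intensities of 7.61 and 6.50, adjusted p of the log ratios 0.0119).

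Mmp14, a membrane-anchored collagenase that also activates other metalloproteinases, had log2 ratios of 1.54 and 0.71 in flox cells with tamoxifen, against 0.55 and -0.00 without it. The groups did not overlap, although experiment 1 was higher in both, and the effect was 0.85 ± 0.11 (adjusted p = 0.0107). The 2 probes of Timp2 gave nearly equal effects. Probe 2 had ratios of 1.71 and 1.69 with tamoxifen, against 0.70 and 0.82 without (effect 0.94 ± 0.10, adjusted p = 0.00687), and probe 1 had 0.91 and 0.80 with tamoxifen, against 0.22 and -0.14 without (0.82 ± 0.11, adjusted p = 0.0110). Both Timp2 probes were thus higher on each array with tamoxifen than on either array without it.

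The granule enzymes were also higher with tamoxifen in flox cells. Mmp8 had log2 ratios of -2.30 and -2.29 with tamoxifen, against -2.86 and -3.16 without it, with no overlap (effect 0.72 ± 0.13, adjusted p = 0.0232). Mmp9 had 0.05 and -0.68 with tamoxifen, against -0.52 and -1.65 without, so that its groups overlapped across experiments while both experiments had a positive difference, 0.57 and 0.97 (0.77 ± 0.17, adjusted p = 0.0467). The call of Mmp9 was lost in 12 of 20 alternatives, among them the day 3 channel alone and the fit without the replicate block (adjusted p between 0.00651 and 0.519). Mmp9 is spotted 10 times on the array, and the SD over its spots was between 0.03 and 0.10 on every array, far below the difference between experiments. Of the 11 neutrophil markers tested, 0 were called for tamoxifen in flox cells (limma, 1 with an unadjusted p under 0.05), where 8.63% of all probes were. Their effects lay between -0.14 and 0.34. The part of neutrophils in the values of Mmp8 and Mmp9 was not tested.

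The other 4 members were not called. Timp1 had log2 ratios of -0.21 and 0.68 in flox cells with tamoxifen, against -0.73 and -1.03 without it (effect 1.12 ± 0.32, adjusted p = 0.0864). Timp3 had -1.40 and -0.24 with tamoxifen, against -1.28 and -1.19 without (0.41 ± 0.34, adjusted p = 0.521). The collagenase Mmp13 had an effect of -0.25 ± 0.19 (adjusted p = 0.500), with ratios between -2.47 and -1.94 over the 4 flox arrays. Mmp19 had an effect of 0.01 ± 0.21 (adjusted p = 0.988, 95% interval -0.51 to 0.52).

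Few of these calls held without 1 of the 4 flox arrays. Without flox with tamoxifen in experiment 2, or without flox without tamoxifen in experiment 2, 0 member probes were called (0.982% and 1.13% of all probes). Without flox without tamoxifen in experiment 1 both Mmp12 probes kept their calls and no other member did (1.43% of all probes). Without flox with tamoxifen in experiment 1 all 7 calls were lost and 1 probe, Timp1, was called in their place (1.71, adjusted p = 0.0274, limma), where 1.75% of all probes were. Without either control array with tamoxifen 4 were called (3.8% of all probes), and in a fit without the replicate block 3 were (2.52% of all probes).

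**Figure D1:**
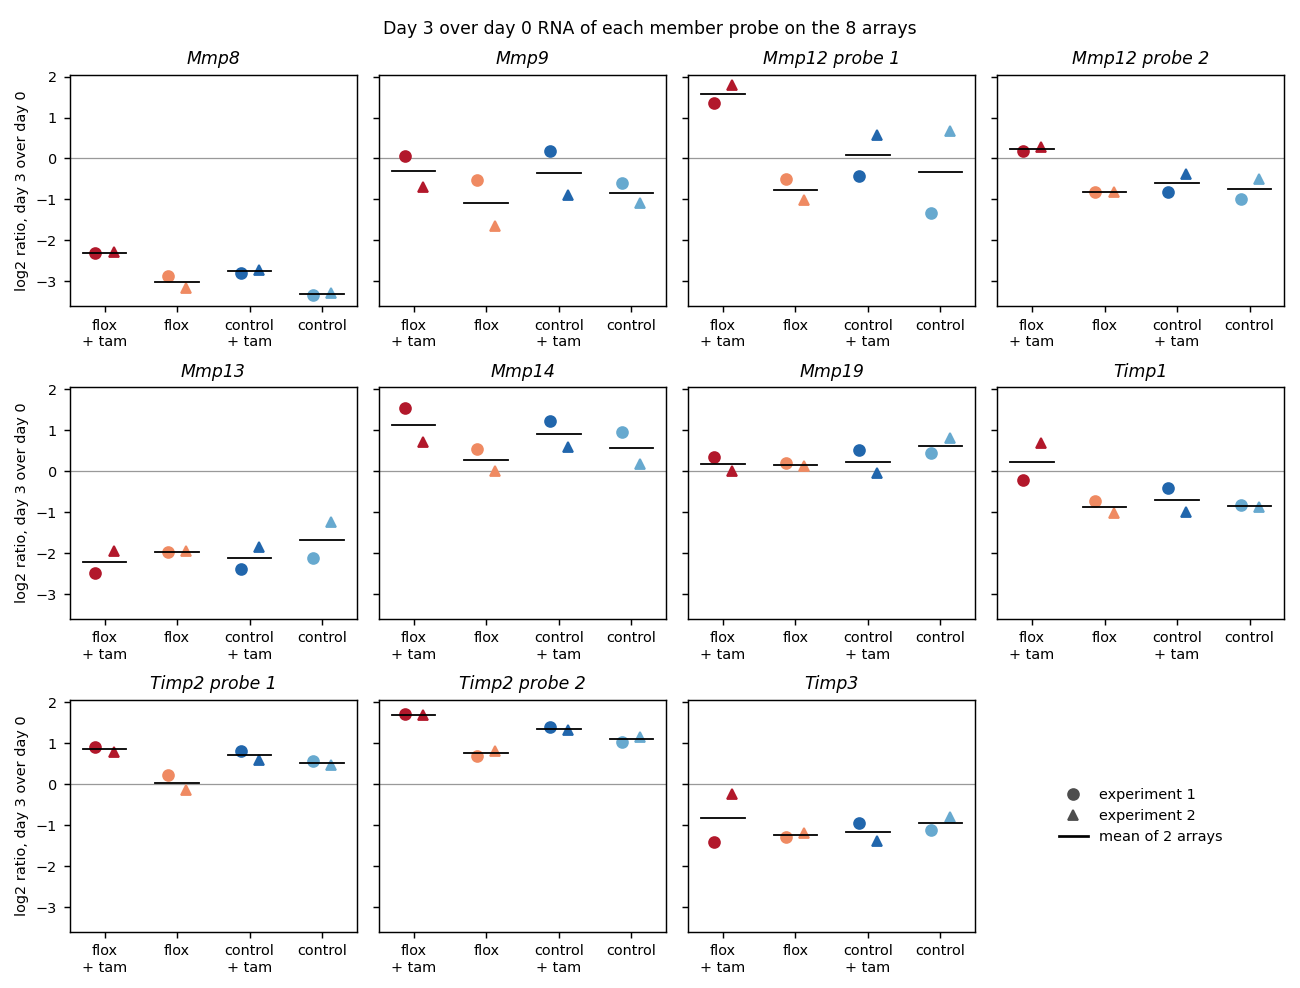
Log2 ratios of day 3 over day 0 for each of the 11 member probes on the 8 arrays. Circles are experiment 1, triangles are experiment 2 and bars are the mean of the 2 arrays; Mmp12 probe 1 is at 1.36 and 1.79 in flox cells with tamoxifen (flox + tam) and at or below 0.66 on the other 6 arrays.

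**Figure D2:**
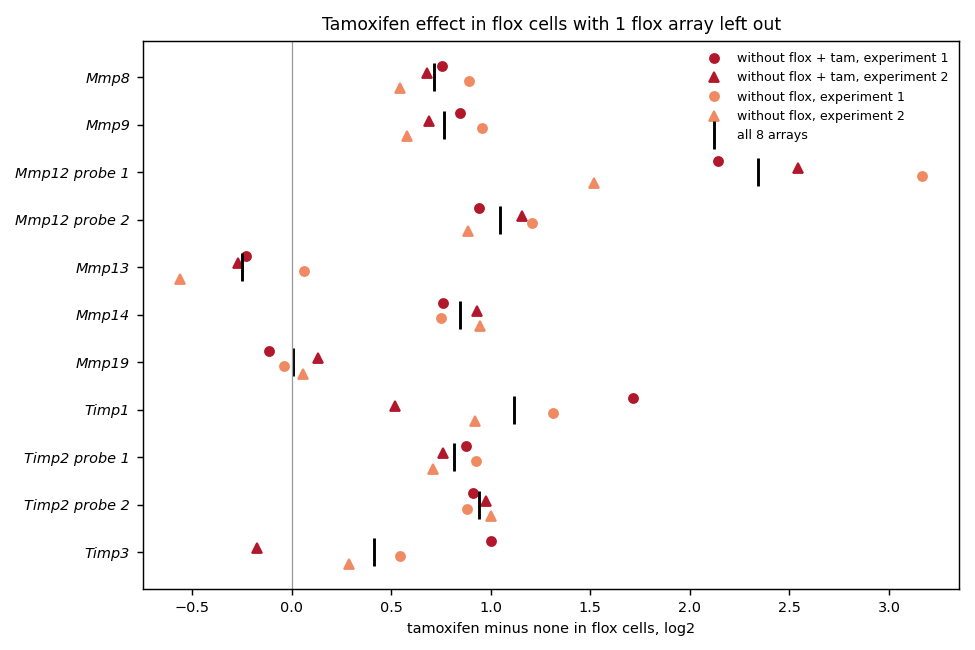
Tamoxifen effect in flox cells (log2) for each member probe from all 8 arrays (black bar) and with 1 flox array left out. The effects of the 7 called probes stay above 0.5, while Timp1 lies at 0.52 and Timp3 at -0.17 without the experiment 2 array of flox cells with tamoxifen.

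In control cells, 0 of 11 member probes were called for tamoxifen (limma, 4 with an unadjusted p under 0.05), and 0% of all probes were called, with 1243 at an unadjusted p under 0.05. Mmp8 had the smallest unadjusted p of the members here, with log2 ratios of -2.79 and -2.72 in control cells with tamoxifen, against -3.34 and -3.29 in control cells without it. These groups did not overlap, the effect was 0.56 ± 0.13 with 0.56 and 0.57 in the 2 experiments, and the adjusted p was 0.504. Mmp9 had 0.18 and -0.89 with tamoxifen, against -0.60 and -1.08 without (0.49 ± 0.17, adjusted p = 0.816). Mmp12 probe 1 had -0.42 and 0.58 with tamoxifen, against -1.34 and 0.66 without, with experiment 1 lower than experiment 2 in both groups (0.42 ± 0.51, adjusted p = 1.00).

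The tamoxifen effect of flox cells minus that of control cells was called for 0 of 11 member probes (limma, 5 with an unadjusted p under 0.05), where 0.946% of all probes were called. For Mmp12 probe 1 the difference was 1.92 ± 0.73, with a 95% interval of 0.17 to 3.67 (adjusted p = 0.284). Timp2 differed by 0.67 ± 0.15 at probe 2 (adjusted p = 0.100) and 0.62 ± 0.16 at probe 1 (adjusted p = 0.129), and Mmp14 by 0.51 ± 0.16 (adjusted p = 0.203). For Mmp8 the difference was 0.16 ± 0.18, with an interval of -0.27 to 0.58. The 7 calls in flox cells are therefore not shown to differ from the effect in control cells.

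**Figure D3:**
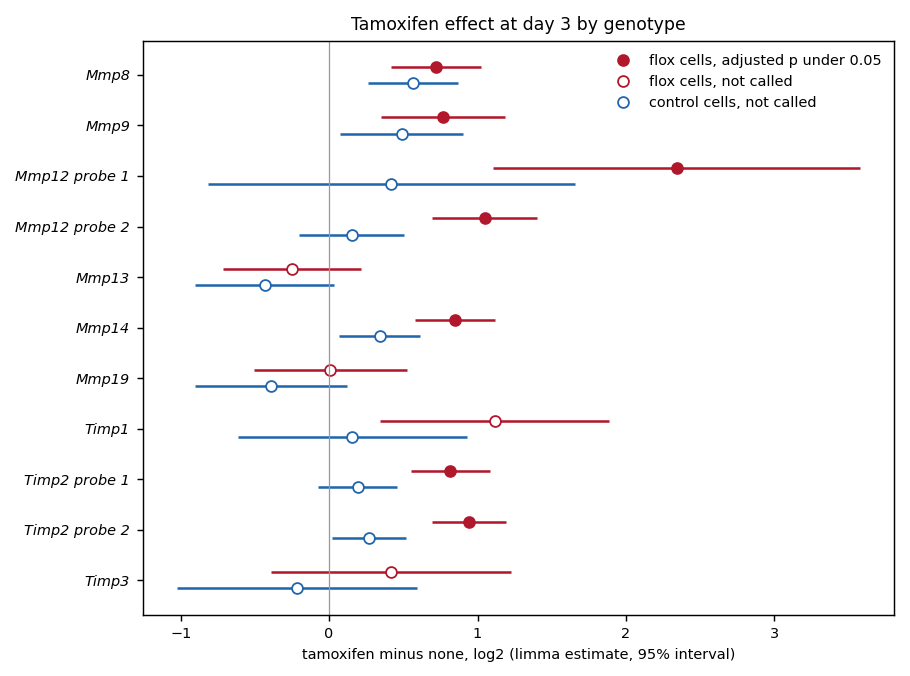
Tamoxifen effect (log2, day 3 ratio with minus without tamoxifen, limma estimate with 95% interval) in flox cells (red) and control cells (blue) for each member probe. Filled points had an adjusted p under 0.05, 7 in flox cells and 0 in control cells, and the values of Mmp12 probe 2 rest on day 3 signals not well above background in either genotype without tamoxifen.

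With tamoxifen in both genotypes, 1 of 11 member probes differed between flox and control cells, where 10.5% of all probes did and 5.01% were higher in flox cells, so the share was close to the background. It was Mmp12 probe 2, with log2 ratios of 0.18 and 0.28 in flox cells with tamoxifen, against -0.82 and -0.37 in control cells with tamoxifen (0.82 ± 0.15, adjusted p = 0.0229, limma). Its day 3 signal was well above background on 1 of the 2 control arrays. Mmp12 probe 1 differed by 1.50 ± 0.51 (adjusted p = 0.114) and Mmp8 by 0.46 ± 0.13 (adjusted p = 0.0678). Timp2 differed by 0.34 ± 0.10 at probe 2 (adjusted p = 0.0880) and 0.14 ± 0.11 at probe 1 (adjusted p = 0.437). Mmp14 differed by 0.21 ± 0.11 (adjusted p = 0.274) and Mmp9 by 0.04 ± 0.17 (adjusted p = 0.909). Mmp12 probe 2 lost its call without any 1 of the 4 arrays of these groups and in a fit without the replicate block (adjusted p between 0.0111 and 0.202 over 18 alternatives).

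The day 3 channel alone, which leaves out the day 0 RNA, gave 5 called probes for the same comparison, where 17.4% of all probes were called. Timp1 had day 3 log2 intensities of 12.56 and 13.50 in flox cells with tamoxifen, against 11.15 and 11.01 in control cells with tamoxifen, a difference of 1.95 (adjusted p = 0.00556). Timp3 had 10.65 and 11.00 in flox cells with tamoxifen, against 10.05 and 9.37 in control cells with it (1.11, adjusted p = 0.0406). Mmp8 and both Mmp12 probes were the other 3. In the log ratios Timp1 and Timp3 were not called, at 0.93 (adjusted p = 0.115) and 0.35 (adjusted p = 0.540). Without tamoxifen, flox cells were also above control cells in the day 3 channel alone, though not called. The differences were 0.91 for Timp1 (adjusted p = 0.0697, limma) and 0.52 for Timp3 (adjusted p = 0.280).

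The array of flox cells with tamoxifen in experiment 2, high in stromal markers, enters the values of Timp1 and Timp3 with tamoxifen. The mean day 3 log2 intensity of the stromal markers was 11.79 on it, 10.45 on the other array of that group and 10.04 and 9.56 in control cells with tamoxifen. Without it, the day 3 channel gave 1.50 for Timp1 (adjusted p = 0.0324, limma) and 0.76 for Timp3 (adjusted p = 0.256), where 3.34% of all probes were called. Without it, the log ratios gave 0.33 for Timp1 (adjusted p = 0.397) and -0.24 for Timp3 (adjusted p = 0.639). The part of stromal cells in these differences was not tested.

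Without tamoxifen, 0 of 11 probes differed between the genotypes in the log ratios (limma, 3 with an unadjusted p under 0.05), where 2.33% of all probes did. Those 3 were all lower in flox cells. They were Timp2 probe 1 at -0.48 ± 0.11 (adjusted p = 0.0756), Timp2 probe 2 at -0.33 ± 0.10 (adjusted p = 0.137) and Mmp14 at -0.30 ± 0.11 (adjusted p = 0.190). In the day 3 channel alone 1 probe, Mmp8, differed, where 10.3% of all probes did, so the share was close to the background.

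Between day 0 and day 3 most members changed in every group, as did most probes of the array. In flox cells with tamoxifen 4 member probes were higher at day 3 and 3 lower, where 59.7% of all probes were called (28% higher and 31.7% lower). In flox cells without it 2 were higher and 6 lower, against 57.9% of all probes (26.9% higher and 31% lower). In control cells with tamoxifen 3 were higher and 6 lower, against 58.1% of all probes (26.5% higher and 31.6% lower). In control cells without it 4 were higher and 6 lower, against 57.5% (25.7% higher and 31.9% lower). The members' shares, 7 to 10 of 11 probes, lay above these backgrounds, furthest so in control cells without tamoxifen. With most of the array called and few member probes, the counts by themselves are not read as a result about the members.

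The collagenases Mmp8 and Mmp13 fell in all 4 groups. Mmp8 was 4.91-fold lower at day 3 in flox cells with tamoxifen, 8.07-fold in flox cells without it, 6.74-fold in control cells with tamoxifen and 9.95-fold in control cells without it (largest adjusted p = 1.74e-05, limma). Mmp13 fell by 2.21, 1.96, 2.11 and 1.67 on the log2 scale in the same groups (largest adjusted p = 0.000188). Mmp9 fell in 3 groups, by 1.08 in flox cells without tamoxifen, 0.35 in control cells with it and 0.84 in control cells without it, and was at -0.32 ± 0.12 in flox cells with tamoxifen (adjusted p = 0.0627). The neutrophil markers were lower at day 3 as well, 11, 11, 10 and 10 of 11 in the 4 groups, in the order given for Mmp8. Their median log2 differences were nearly level over these groups, at -3.69, -3.72, -3.45 and -3.48. Their part in the fall of Mmp8 and Mmp9 was not tested.

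Timp2 and Mmp14 rose between day 0 and day 3. Timp2 probe 2 was higher at day 3 in all 4 groups, by 1.70 ± 0.07, 0.76 ± 0.07, 1.36 ± 0.07 and 1.09 ± 0.07 on the log2 scale (largest adjusted p = 0.000331). Timp2 probe 1 was called in 3 of them and was at 0.04 ± 0.08 in flox cells without tamoxifen (adjusted p = 0.699). Mmp14 rose by 1.12, 0.28, 0.91 and 0.57 (largest adjusted p = 0.0241), where the smallest value, in flox cells without tamoxifen, lost its call with median centring, in a fit without the replicate block and without either array of that group (0.14 to 0.37 over 17 alternatives). For both genes, then, flox cells without tamoxifen had the smallest change of the 4 groups.

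Mmp12 probe 1 was higher at day 3 in flox cells with tamoxifen (1.58 ± 0.36, adjusted p = 0.00940) and was called in no other group, where it was at -0.76, 0.08 and -0.34. The dim Mmp12 probe 2 was lower at day 3 without tamoxifen, by an estimated 1.77-fold in flox cells and 1.68-fold in control cells. Its day 3 signal was not well above background on any array of these groups, so the sizes are uncertain. It fell by 0.60 ± 0.10 in control cells with tamoxifen (adjusted p = 0.00326), where 1 of 2 arrays had a day 3 signal well above background, and was at 0.23 ± 0.10 in flox cells with tamoxifen (adjusted p = 0.101). Timp1 fell by 0.88, 0.69 and 0.85 in flox cells without tamoxifen, control cells with it and control cells without it, and was at 0.24 ± 0.23 in flox cells with tamoxifen (adjusted p = 0.396). That last value turned with the array: it was 0.84 without experiment 1 (adjusted p = 0.0167, limma) and -0.36 without experiment 2, the array high in stromal markers (adjusted p = 0.142). Timp3, an inhibitor that binds the matrix, fell by 0.82, 1.24, 1.17 and 0.95 in the 4 groups (largest adjusted p = 0.0230). Mmp19 was called only in control cells without tamoxifen, at 0.62 ± 0.15 (adjusted p = 0.0123).

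Some of these smaller changes rest on both arrays of their group. Timp1 lost its call without either array of the group in all 3 groups where it fell, and was between -1.07 and -0.68 over 17 alternatives in flox cells without tamoxifen. Timp3 lost its call without the experiment 1 array in flox cells with tamoxifen (-0.23, adjusted p = 0.439) and was at -1.41 there without the experiment 2 array, high in stromal markers (adjusted p = 0.00528). It also lost its call without the experiment 2 array in flox cells without tamoxifen and in control cells with it, and without either array in control cells without it. Mmp12 probe 1 in flox cells with tamoxifen lost its call without either array (1.38 to 1.78 over 17 alternatives). Mmp9 in control cells with tamoxifen lost it without either array of that group or of flox cells with tamoxifen, without the replicate block, with median centring, with no filter on dim probes, with a random block and with the deposited value table (-0.49 to -0.22). Calls were also lost for Mmp12 probe 2 in that group without the experiment 1 array, and for Mmp19 in control cells without tamoxifen without the experiment 2 array (0.28 to 0.97).

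Before tamoxifen, at day 0, 0 of 11 member probes differed between flox and control cells (limma, 3 with an unadjusted p under 0.05), where 1.11% of all probes did. Timp1 had the smallest adjusted p, with log2 intensities of 12.70 and 12.82 in flox cells, against 11.56 and 11.99 in control cells (0.98 ± 0.24, adjusted p = 0.164). Timp3 had 12.05 and 11.28 in flox cells, against 10.95 and 10.82 in control cells (0.78 ± 0.29, adjusted p = 0.481). Both flox samples were above both control samples for each gene. The stromal markers lay on the same side, 0.78 and 0.50 higher in flox cells on average and 0 of 8 called (limma, 1 with an unadjusted p under 0.05), and 6 of 11 neutrophil markers were called higher in flox cells at day 0.

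Over the 6 RNA conditions, the day 3 flox cells with tamoxifen had the highest Mmp12 level, with log2 intensities of 14.59 and 14.98 at probe 1. Next in level were control cells at day 3 with tamoxifen (13.53 and 13.23), control cells at day 0 (13.92 and 12.65) and flox cells at day 0 (13.24 and 13.14). Control cells at day 3 without tamoxifen had 12.56 and 13.30, and flox cells at day 3 without it had 12.74 and 12.08. The highest condition was clear of its neighbour, while the other 5 overlapped the next in this order.

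Mmp13 had its highest levels at day 0, 11.95 and 11.65 in flox cells and 12.53 and 11.62 in control cells. At day 3 it had 9.52 and 9.64 in flox cells with tamoxifen, 9.94 and 9.77 in flox cells without it, 10.15 and 9.74 in control cells with tamoxifen and 10.42 and 10.42 in control cells without it. Timp2 probe 2 ran the other way, with 14.61 and 15.06 in day 3 flox cells with tamoxifen, against 12.86 and 13.36 in flox cells at day 0. Its day 3 level in flox cells without tamoxifen was 13.52 and 14.16.

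**Figure D4:**
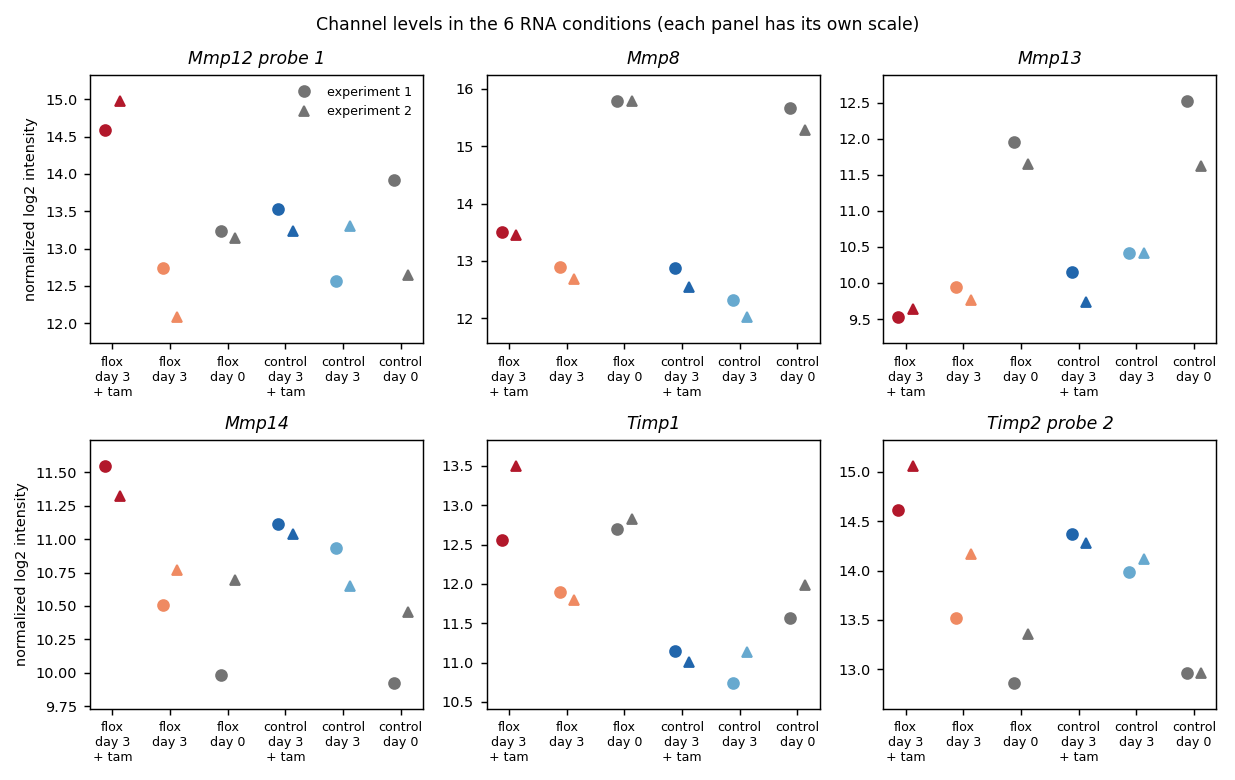
Normalized log2 intensity of 6 member probes in the 6 RNA conditions, circles for experiment 1 and triangles for experiment 2, with day 0 values averaged over the 2 arrays that share the RNA. Mmp12 probe 1 is highest in day 3 flox cells with tamoxifen (14.59 and 14.98), and Mmp8 and Mmp13 are highest at day 0.

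The inhibitors Timp1 and Timp3 varied with the array that stood apart in its stromal markers. On that array, flox cells with tamoxifen in experiment 2, the log2 ratio was 0.68 for Timp1, -0.24 for Timp3 and 0.57 for the mean of the stromal markers. Over the other 7 arrays Timp1 ranged from -1.03 to -0.21 and Timp3 from -1.40 to -0.79. Without that array the tamoxifen effect in flox cells was 0.52 for Timp1 (adjusted p = 0.286) and -0.17 for Timp3 (adjusted p = 0.820).

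Of the 8 stromal markers tested, 1, the proteoglycan gene Dcn, was called higher with tamoxifen in flox cells (1.17 ± 0.26, adjusted p = 0.0429, limma). Of all probes, 4.52% were called higher. The ninth marker, Lum, was above background on 1 array at day 3 and 2 at day 0. Timp1 and Timp3 are expressed by fibroblasts as well as macrophages, and the part of stromal cells in their values was not tested. Over 20 alternative settings the effect of Timp1 in flox cells lay between 0.52 and 1.71, with adjusted p between 0.000101 and 0.324.

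**Figure D5:**
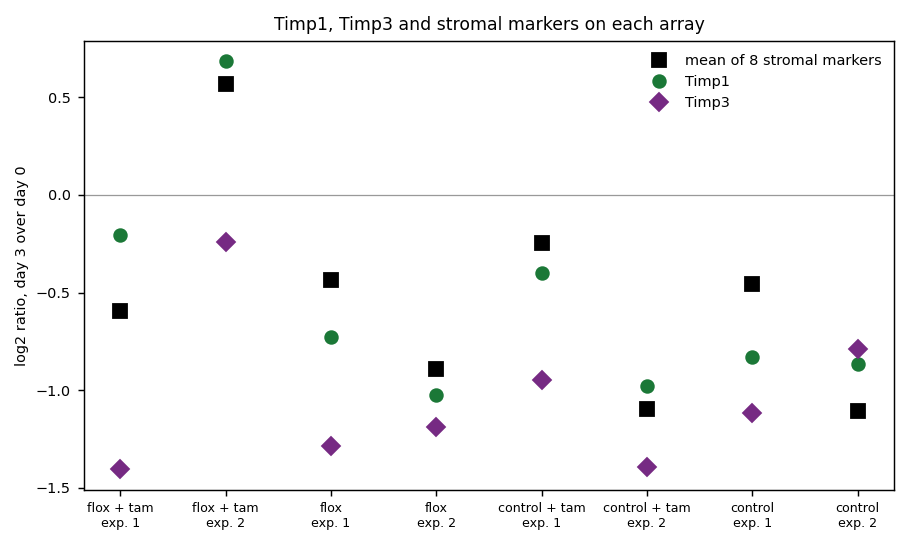
Log2 ratios of day 3 over day 0 for Timp1, Timp3 and the mean of 8 stromal markers on each of the 8 arrays. All 3 have their highest value on the experiment 2 array of flox cells with tamoxifen, at 0.68, -0.24 and 0.57.

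Other genes of the pathway were mostly not called for tamoxifen in flox cells. Of all probes, 8.63% were called there (4.52% higher and 4.11% lower). Each gene of these lists was taken by its brightest tested probe. Of 17 other metalloproteinase genes on the array 8 were bright enough to be tested, and 1 was higher, Mmp11 (stromelysin-3). It had log2 ratios of 0.63 and 0.64 in flox cells with tamoxifen, against 0.18 and -0.43 without it (0.76 ± 0.16, adjusted p = 0.0365, limma). A second tested Mmp11 probe, above background on 2 arrays at day 3 and 3 at day 0, is not given. Mmp1a, Mmp1b, Mmp7, Mmp15, Mmp16, Mmp20, Mmp28 and the inhibitor Timp4 were above background in neither channel of any array. Of 8 plasminogen system genes, 1 was higher, the protease inhibitor Serpinb2 (0.86 ± 0.20, adjusted p = 0.0489).

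Among the other inhibitors and surface regulators 0 of 7 were called (limma, 1 with an unadjusted p under 0.05), and the values with the smallest p were 0.52 ± 0.22 for the endocytic receptor Lrp1 and 0.30 ± 0.22 for Cd44. The related ADAM proteases had 0 of 10 called (2 with an unadjusted p under 0.05), with Adam17, the shedding enzyme of Tnf, at 0.58 ± 0.15 (adjusted p = 0.0626) and Adam23 at -0.83 ± 0.27. The ADAMTS proteases had 0 of 5 called (1 with an unadjusted p under 0.05), with Adamts2 at 0.88 ± 0.33 and Adamts8 at 0.78 ± 0.37. Adamts2 had its highest log2 ratio, 0.70, on the array high in stromal markers, and its effect was 0.24 without it (adjusted p = 0.573).

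Matrix proteins that these enzymes cut or bind had 3 of 19 genes higher and 1 lower with tamoxifen in flox cells. Of all probes, 4.52% were called higher and 4.11% lower. Col18a1, the source of endostatin, had log2 ratios of 1.00 and 0.93 in flox cells with tamoxifen, against -0.33 and -0.58 without it (1.42 ± 0.17, adjusted p = 0.00768). Fbn1 had -0.85 and 0.07 with tamoxifen, against -1.52 and -1.66 without (1.20 ± 0.27, adjusted p = 0.0477), and Dcn was the other higher gene. The proteoglycan gene Vcan fell by 1.18 ± 0.18 (adjusted p = 0.0162). Without the array high in stromal markers 0 of 19 were called, with Fbn1 at 0.68 (adjusted p = 0.122, limma), Dcn at 0.68 (adjusted p = 0.106), Col18a1 at 1.44 (adjusted p = 0.0620) and Vcan at -1.27 (adjusted p = 0.0869). Without that array, genes called in other lists had effects of 2.14 (Atp6v0d2), 2.06 (Ctsk), 1.44 (Dcstamp) and -1.61 (Acp5). Mmp11 was at 0.53, Serpinb2 at 0.72, Cd68 at 1.28 and Fcgr1 at -0.88. The stromal marker Cxcl12 was at -1.33, against -0.07 with all arrays. These values rest on 1 array of flox cells with tamoxifen.

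Of 7 osteoclast-type genes, 3 were higher with tamoxifen in flox cells and 1 was lower. Of all probes, 4.52% were called higher and 4.11% lower. The other 3, Itgb3, Ocstamp and Oscar, were not called, at 0.25, -0.17 and -0.05. Atp6v0d2, a proton pump subunit, had log2 ratios of 3.32 and 3.56 in flox cells with tamoxifen, against 1.20 and 0.50 without it (2.59 ± 0.24, adjusted p = 0.00440). The collagen-cutting protease Ctsk had 0.17 and 0.49 with tamoxifen, against -1.69 and -1.74 without (2.05 ± 0.22, adjusted p = 0.00669), and Dcstamp was higher by 1.22 ± 0.18. Acp5, the tartrate-resistant acid phosphatase, fell by 1.44 ± 0.14 (adjusted p = 0.00452), and the osteoclast receptor gene Calcr was above background on 0 arrays. Of 9 macrophage markers 1 rose, Cd68 (0.99 ± 0.22, adjusted p = 0.0422), and 1 fell, Fcgr1 (-0.86 ± 0.11, adjusted p = 0.0101).

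For each member called in flox cells, the 3 genes with the most similar 8 log2 ratios were taken by the root mean square difference. These distances are descriptions over 8 arrays of 4 groups that share day 0 RNA in pairs. For Mmp12 they were Npy (0.27), Rhov (0.40) and Htr2b (0.41). Npy had ratios between -0.75 and 1.59 and correlated with Mmp12 probe 1 at r = 0.98 over the arrays. Mmp14 was nearest to Naprt (0.17), Slc46a3 (0.18) and Npc2 (0.19), with r between 0.94 and 0.96, and Timp2 to Mfsd11 (0.15), Ltc4s (0.15) and Nme3 (0.17). Mmp9 was nearest to Cfap74 (0.31), Oscp1 (0.34) and Per1 (0.35). Mmp8 was nearest to Prtn3 (0.41), another granule protease gene of neutrophils, Gm3770 (0.48) and Rab44 (0.51), but the correlations with these were -0.21, -0.00 and -0.63, so the likeness lay in the level and not in the order of the arrays.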

How the data were processed

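Arrays were scanned by the authors and read with Agilent Feature Extraction, version 10.7.3.1, per the submitters' processing notes. Scanner files deposited by the authors give spot and local background intensity for either channel. A value table, also deposited, gives a log10 ratio with day 3 on top. Spot flags in the deposited files mark outliers and signals above background. Each array had 44397 spots, and 51.2% to 57.9% of probes were well above background in a channel. The small number of arrays limits the precision.

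Mean intensity was background corrected by normexp (offset 50), and log2 ratios were loess normalized within arrays (limma 3.58.1, R 4.3.3). Ratios were turned to day 3 over day 0, outlier spots were left out and the spots of a probe averaged. Probes were kept that were well above background on both arrays of a group in a channel. The model held 4 group means plus experiment, a term that dye orientation and slide share, with 3 residual degrees of freedom. Benjamini-Hochberg adjustment ran over all probes tested, with a threshold of 0.05. Levels and the day 0 comparison used channel intensities scaled between arrays, in a fit of 12 RNA samples. The series design pairs samples of an experiment, and same-numbered arrays deviated together (r between 0.28 and 0.72). Alternatives covered normalization, filters, the replicate block and left-out arrays, and the fit was tested on simulated data. The text names the members, Thoc5, per list up to 4 called genes with the smallest p (2 where none was called) and the nearest profiles. The members and lists were chosen with earlier results of these data known.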

Additional observations from a re-analysis of the deposited data

How the results depend on the processing

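No called member value changed sign under any alternative run. With limma, counts of called member probes over the alternatives were within 1.5 times the main count in 147 of the 172 cases compared, and of the values of single probes 1747 kept their side of the threshold, 87 lost a call and 31 gained it. For tamoxifen in flox cells (7 called) the count was 3 with no replicate block, 1 in the day 3 channel alone without flox with tamoxifen in experiment 2 (2.54% of all probes), and 0 to 7 with 1 array left out. For the difference of the tamoxifen effects (0 called) it was 1 with median centring (1.93% of all probes), 2 with the day 0 RNA as a random block (4.61%, consensus correlation 0.34) and 1 in the day 3 channel alone (3.32%). For flox against control with tamoxifen (1 called) it was 0 with no replicate block (2.72%) and with the deposited value table (6.33%). It was also 0 with a strict filter on dim probes (10.5%) and with 1 probe per gene (11.3%). The called probe, Mmp12 probe 2, was not part of the fits with that filter or with 1 probe per gene, so they do not retest its call. The count was 2 with only the arrays compared (11.4%), 3 with median centring (8.37%) and 5 in the day 3 channel alone (17.4%). Without tamoxifen (0 called) it was 1 in the day 3 channel alone (10.3%). For day 3 against day 0 in flox cells without tamoxifen (8 called) it was 5 to 9 with 1 array left out. For that comparison the left-out fits called between 33.3% and 61.9% of all probes. For tamoxifen in flox cells they called between 0.982% and 13.3%, and for flox against control with tamoxifen between 0% and 16.8%. The share of all probes thus changed in these fits too. By themselves the left-out counts are not read as a result about the members. The left-out fits hold fewer samples, and the cause of these changes was not tested. The effect of Mmp12 probe 1 in flox cells lay between 1.52 and 3.17. The fitted value of the dim probe 2 lay between 0.89 and 3.32, highest with the deposited value table. The alternatives with a normexp offset of 1 and with the day 3 channel without that array were added after the data were seen. Dim signals limit what Mmp12 probe 2 can show, and 2 arrays per group limit all intervals.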
